A study of Rattus norvegicus with 6 samples.

Results

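The genes described here encode the proteasome in Rat-1, an established fibroblast line of the rat. They are the 49 of 17143 genes in the deposited table whose symbol starts with Psma, Psmb, Psmc, Psmd, Psme, Psmf or Psmg and a number. Messenger RNA was measured by 3' end sequencing 4 h after 25000 cells per well were plated on extracellular matrix. The matrix was native (2 libraries, the control), treated with the collagenase MMP1 (2 libraries) or treated with the collagenase MMP13 (2 libraries). All groups share the cell line, grown in serum-containing medium, and the time, and the comparison asks how the cells respond to a matrix cut by either enzyme. The labels speak of duplicates without naming separate cultures or days, so the p-values cover only the library-to-library spread, possibly technical.

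The proteasome is the barrel-shaped protease that degrades ubiquitin-tagged proteins. Its core particle is built from outer alpha rings, which gate the barrel, and inner beta rings, which hold the catalytic sites. A regulatory particle caps the core: its base contains a ring of ATPases that unfold substrates, and its lid removes ubiquitin. Alternative caps (the Psme activators), an inhibitor (Psmf1) and dedicated chaperones complete the family. The standard catalytic subunits can be replaced by interferon-inducible ones in the immunoproteasome. In many cells the subunit genes are transcribed together, in part through NRF1, a factor that binds antioxidant response elements.

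In the 49 rows, 47 distinct parts are represented. Psma3l carried the same reads as Psma3 in every library and is a synonym of Psma3 in RefSeq, and Psmc3ip, which matches the naming pattern, encodes a meiotic recombination factor (13.4 to 19.5 units). Values are the deposited reads divided by a scaling factor per library, called units, and 43 of the distinct parts reached 5 units in at least 2 libraries and were tested. The libraries held between 161817 and 362122 reads, and 0 reads in a library allow up to 2.21 to 5.04 units (3 reads). Such limits and the intervals below cover counting error only. In bulk RNA, fewer cells expressing a gene and a lower level of it in each cell cannot be told apart. Levels were not divided by transcript length, because each read comes from a transcript end, and no order between genes is drawn from them. As a check of the cell type, 10 fibroblast markers together took 2.68% to 2.97% of units in the 6 libraries. The members differed widely: Col1a1 averaged 2094 units, Col3a1 14.4 and Pdgfra 5.62. Krt8 of the epithelial list averaged 10.1 units. The leukocyte list took at most 0.0049%, with 3 of its 8 markers at 0 in every library, the endothelial list at most 0.0032%, the epithelial list at most 0.0061% and the muscle list at most 0.0077%.

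No proteasome gene passed the test on either treated matrix, where 0.151% (MMP1) and 0.412% (MMP13) of all tested genes passed. The 47 parts together took 1.03% and 1.04% of all units on native matrix, 1.06% and 1.11% with MMP1, and 1.13% and 1.05% with MMP13. All 4 treated libraries were thus slightly above both native ones, and the mean sums were 1.07-fold the native mean with MMP1 and 1.07-fold with MMP13. MMP13 replicate 2 (1.046%) stood closer to native replicate 2 (1.036%) than to MMP13 replicate 1 (1.134%). No error was computed for this sum or the sums below, so small gaps between them may be counting error. The members with the smallest p against native on both matrices included the alpha ring gene Psma4 and the catalytic gene Psmb7. The standard catalytic gene Psmb5 stayed near 104 units on native, 102.7 with MMP1 and 103.2 with MMP13 (means, n = 2 each).

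The promoters shown are those of Psma4 and Psmb7 as the members with small p on both matrices and that of Psmb5 as one with nearly level values. They are the 250 bases before the annotated start in RefSeq on GRCr8, 5′ to 3′ on the gene's strand, from chr8:64236270-64236519 (plus), chr3:42827471-42827720 (minus) and chr15:32047380-32047629 (minus). Capitals mark CCAAT on either strand, the box bound by NF-Y, and TGACNNNGC, the core of the antioxidant response element.
Psma4: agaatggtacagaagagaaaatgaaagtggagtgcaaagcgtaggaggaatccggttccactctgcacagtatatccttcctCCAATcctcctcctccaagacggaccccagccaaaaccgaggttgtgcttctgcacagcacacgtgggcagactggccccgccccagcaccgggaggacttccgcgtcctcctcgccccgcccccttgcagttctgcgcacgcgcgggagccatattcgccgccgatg
Psmb7: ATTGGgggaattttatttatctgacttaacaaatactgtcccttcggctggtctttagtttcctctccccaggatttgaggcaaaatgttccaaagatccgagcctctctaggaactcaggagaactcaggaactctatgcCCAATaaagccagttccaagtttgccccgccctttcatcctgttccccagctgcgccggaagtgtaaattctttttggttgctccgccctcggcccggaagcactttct
Psmb5: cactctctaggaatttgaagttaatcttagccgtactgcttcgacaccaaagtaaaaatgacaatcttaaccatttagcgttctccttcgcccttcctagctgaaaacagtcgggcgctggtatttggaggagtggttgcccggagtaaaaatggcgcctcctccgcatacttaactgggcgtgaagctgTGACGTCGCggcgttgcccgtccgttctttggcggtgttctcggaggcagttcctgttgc
The CCAAT box of Psma4 begins 168 bases before the start and the nearer one of Psmb7 begins 109 before it. The match in Psmb5 begins 60 bases before the start. Of the 49 symbols, 43 had a window of 300 bases (250 before and 50 after the start) in the table. These are not the 43 tested parts, since Psmc3ip and the untested Psmb8 and Psmd10 are among them. CCAAT stood on either strand in 21 of the 43 windows (48.8%), that of Psmc3ip included, and in 37.5% of all 33469 windows. TGACNNNGC stood in 8 (18.6%), namely Psma3, Psmb2, Psmb5, Psmb6, Psmd1, Psmd3, Psmd9 and Psme4, and in 12.1% of all windows. The printed windows hold no overlapping motifs, and a match describes letters and not a bound site.

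**Figure D1:**
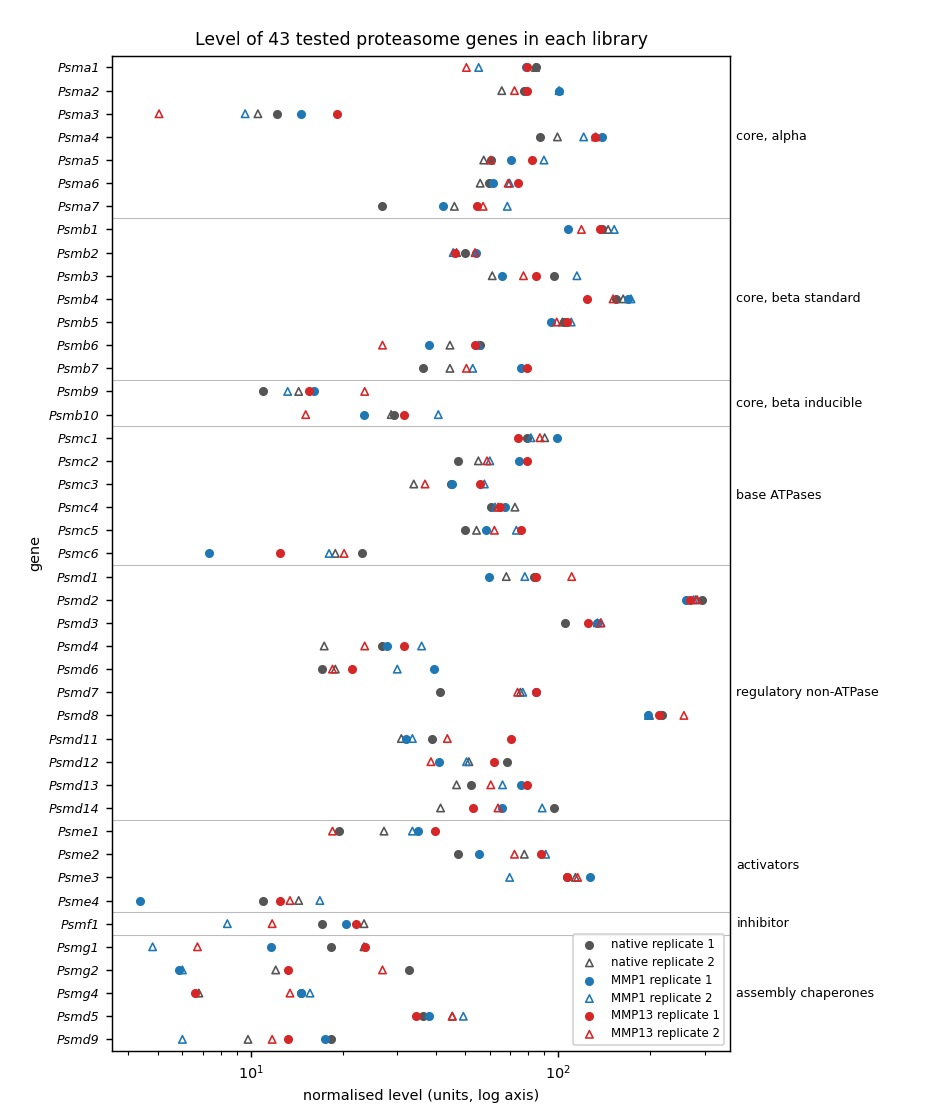
Level of the 43 tested proteasome parts in each of the 6 libraries, in normalised units on a log axis, grouped by role; colours are the matrices, circles replicate 1 and triangles replicate 2. For Psma4 both native libraries lie to the left of the 4 treated ones, and for Psmb5 the colours interleave.

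Most alpha ring genes had a fold above 0 with both enzymes, and none passed the test. Of 7 tested, 6 had a log2 fold above 0 with MMP1 (median 0.42) and 5 with MMP13 (median 0.25). Over all 7284 tested genes the medians were 0.0161 and 0.0088, and 51.1% and 50.5% of folds were above 0. Their summed level was 412 and 421 units on native, 507 and 515 with MMP1, and 524 and 448 with MMP13. All 4 treated sums lay above both native sums. These lists were chosen with results of these data known, and no list test was run.

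Psma4, an alpha ring subunit, was at 87.5 and 99.6 units on native, 138.7 and 121.2 with MMP1, and 131.6 and 132.7 with MMP13. The groups did not overlap with native on either matrix. By limma the log2 fold was 0.47 (SE 0.23, adjusted p = 0.60) with MMP1 and 0.50 (SE 0.23, adjusted p = 0.55) with MMP13. In fits that each left out 1 library, the 2 folds ran from 0.37 to 0.57 and from 0.40 to 0.59.

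Psma7, another alpha subunit, was at 26.7 and 46.03 units on native, 42.4 and 68.4 with MMP1, and 54.4 and 57.1 with MMP13. The MMP1 libraries overlapped with native and the MMP13 libraries lay above it. The log2 folds were 0.60 and 0.65 (adjusted p = 0.65 and 0.62 by limma). Without native replicate 1 they were 0.22 and 0.27.

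Psma2 was at 77.8 and 65.7 units on native, 100.8 and 100.8 with MMP1, and 79.4 and 72.2 with MMP13. The MMP1 libraries thus stood above the other 4, with a log2 fold of 0.49 against native (adjusted p = 0.65 by limma), and of -0.41 for MMP13 against MMP1 (adjusted p = 1.0). Psma5 was at 60.8 and 57.4 units on native, 70.1 and 90.03 with MMP1, and 82.4 and 60.5 with MMP13. For Psma5 the MMP1 libraries lay above native (log2 fold 0.42), and 1 MMP13 library lay within the native range.

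Psma6 was at 59.6 and 55.8 units on native, 61.3 and 69.6 with MMP1, and 74.3 and 68.8 with MMP13, log2 folds of 0.18 and 0.31. Psma1 went the other way, at 85.1 and 84.5 units on native, 78.9 and 55.2 with MMP1, and 79.4 and 50.4 with MMP13, log2 folds of -0.36 and -0.42. Its second library was the lower one in both treated groups. Psma3 was low, between 5.04 and 19.1 units, with overlapping groups. Psma8, the alpha subunit of male germ cells, had 9 reads in all and was at 0 in both MMP1 libraries.

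The standard beta genes as a group were level. Their sum was 637 and 609 units on native, 606 and 705 with MMP1, and 633 and 578 with MMP13, so the treated groups overlapped with native. Of 7 tested, 4 had a log2 fold above 0 with MMP1 (median 0.0393) and 3 with MMP13 (median -0.0113), and none passed. Over all tested genes, 51.1% and 50.5% of folds were above 0.

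Psmb5, which carries the chymotrypsin-like site, was at 104.5 and 103.4 units on native, 94.9 and 110.4 with MMP1, and 107.4 and 99.1 with MMP13. Its log2 folds were -0.02 (95% interval -0.50 to 0.46) and -0.01 (-0.49 to 0.47). The sign of such small folds turned when MMP1 replicate 1 (0.0864) or MMP13 replicate 2 (0.0461) was left out. Psmb7, which carries the trypsin-like site, was at 36.5 and 44.5 units on native, 75.9 and 52.8 with MMP1, and 79.4 and 50.4 with MMP13. The treated libraries lay above both native ones, with log2 folds of 0.64 and 0.64 (SE 0.32, adjusted p = 0.60 and 0.59 by limma). The first library of each treated group was the higher, and without it the folds were 0.38 and 0.31. Psmb6, which carries the caspase-like site, was at 55.9 and 44.5 units on native, 37.97 and 55.2 with MMP1, and 53.7 and 26.9 with MMP13, with overlapping groups. The log2 folds of Psmb6 were -0.12 (95% interval -0.79 to 0.55) and -0.38 (-1.06 to 0.29). The estimated folds of the catalytic genes thus differed in sign, but none passed and their intervals overlapped.

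The non-catalytic beta genes frame the ring. Psmb4 was at 154.4 and 163 units on native, 169.4 and 172.9 with MMP1, and 124.3 and 151.1 with MMP13. Its MMP13 libraries lay below both other groups, and the log2 fold of MMP13 against MMP1 was -0.32 (adjusted p = 1.0 by limma). Psmb1 was at 138.6 and 145.6 units on native, 108.1 and 152.4 with MMP1, and 137.5 and 119.2 with MMP13, where both libraries lay below native. Psmb2 stayed between 45.6 and 54.03 units in all 6 libraries. Psmb3 scattered between replicates, at 97.2 and 61.1 units on native and 65.7 and 115.2 with MMP1.

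Of the interferon-inducible catalytic genes, Psmb9 and Psmb10 were detected in all 6 libraries and Psmb8 in none. Psmb9, the counterpart of Psmb6, was at 10.9 and 14.3 units on native, 16.1 and 13.2 with MMP1, and 15.4 and 23.5 with MMP13. Its MMP13 libraries lay above native (log2 fold 0.57, 95% interval -0.50 to 1.64, adjusted p = 0.86 by limma), and the fold with MMP1 was 0.20. Psmb10, the counterpart of Psmb7, was at 29.2 and 28.7 units on native, 23.4 and 40.8 with MMP1, and 31.6 and 15.1 with MMP13, with overlapping groups. Psmb8, the counterpart of Psmb5, had 0 reads in all 6 libraries, out of 1500498 reads in total. Psmb11, the form of thymic epithelium, had 3 reads in all.

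As a share of its pair's reads, Psmb9 made up 20.4% ± 5.7 on native, 24.5% ± 7.4 with MMP1 and 34.5% ± 17.2 with MMP13 (SD, n = 2 each). The MMP13 value rested on replicate 2, with 14 of 30 reads (46.7%, exact 95% interval 28.3% to 65.7%), while replicate 1 had 22.3%. The share of Psmb10 was 41.8% ± 3.7 on native, 33.6% ± 14.2 with MMP1 and 25.8% ± 3.8 with MMP13. Both MMP13 libraries (28.5% and 23.1%) lay below both native ones (44.4% and 39.2%), and the exact intervals of the shallow libraries are wide. Of the pair, Psmb7 had a log2 fold of 0.64 with MMP13 and Psmb10 of -0.38, and neither passed. With 0 of 146 reads in the deepest library, the share of Psmb8 could be up to 2.05% by the limit of 3 reads, and up to 5.08% in the shallowest. The exact 95% intervals of the same shares reach 2.49% and 6.06%. How fully each gene's end was counted was not checked, so the shares bear on differences between libraries and not on protein ratios.

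**Figure D2:**
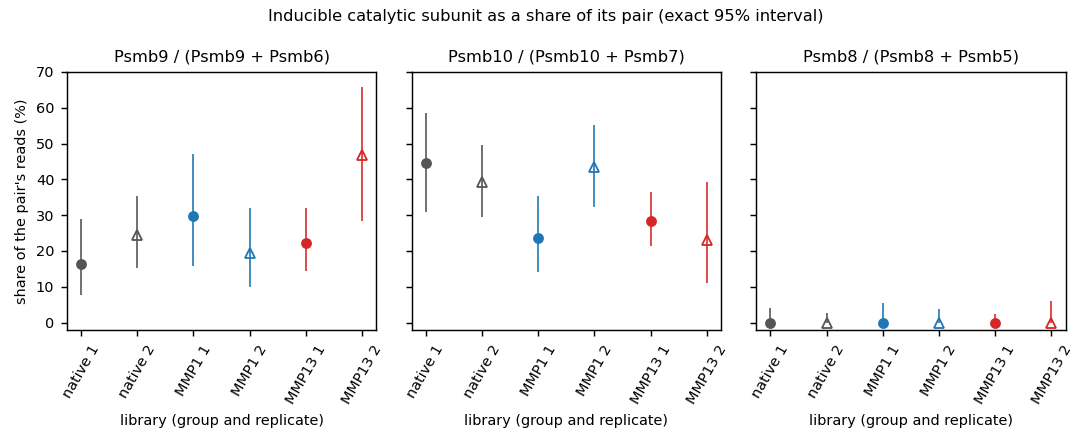
Reads of each interferon-inducible catalytic gene as a percentage of its own reads plus those of its standard counterpart, per library, with exact 95% binomial intervals; circles are replicate 1, triangles replicate 2. The Psmb8 share is 0 in all 6 libraries, and the Psmb9 share of MMP13 replicate 2 (46.7%) is above the other 5.

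Genes of the antigen-processing pathway that works with the immunoproteasome had no call. Of 5 tested, none passed with either enzyme, where 0.151% (MMP1) and 0.412% (MMP13) of all tested genes passed. Irf1, a transcription factor of interferon responses, was at 51.1 and 46.8 units on native, 30.7 and 32.4 with MMP1, and 35.3 and 35.3 with MMP13. Its treated libraries lay below both native ones (adjusted p = 0.70 and 0.81 by limma), as did 18.8% and 18.6% of all tested genes. B2m also lay below native with both enzymes (log2 folds -0.26 and -0.18). Tapbp (0.23 and 0.04) and Erap1 (0.19 and -0.74) overlapped with native. The peptide transporter gene Tap1 was between 14.6 and 20.7 units in all libraries.

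The base of the regulatory particle holds the ATPases. The 6 Psmc genes summed to 305 and 325 units on native, 352 and 353 with MMP1, and 363 and 329 with MMP13. All 4 treated sums lay above both native ones, and the mean was 1.12-fold native with MMP1 and 1.10-fold with MMP13. The gap of MMP13 replicate 2 (329 units) to native replicate 2 (325) was narrow, since 1 read of the former is 1.68 units. The median log2 fold of the 6 was 0.21 and 0.08, and none passed.

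Psmc2 was at 47.4 and 55.1 units on native, 74.5 and 60.02 with MMP1, and 79.4 and 58.8 with MMP13 (log2 folds 0.38 and 0.41). Psmc5 was at 49.8 and 54.3 units on native, 58.4 and 73.2 with MMP1, and 75.7 and 62.1 with MMP13 (log2 folds 0.32 and 0.39). In both genes native did not overlap with either treated group, and the adjusted p by limma was between 0.77 and 0.81. Psmc3 was at 44.98 and 33.96 units on native, 45.3 and 57.6 with MMP1, and 55.9 and 36.9 with MMP13. Psmc1 was at 79.01 and 90.6 units on native and between 74.3 and 99.3 on treated matrix, and Psmc4 was between 60.8 and 72.4 units throughout. Psmc6 was at 23.1 and 18.9 units on native, 7.302 and 18.01 with MMP1, and 12.5 and 20.2 with MMP13. Its log2 folds of -0.80 and -0.37 were opposite to those of Psmc2 and Psmc5, and without MMP1 replicate 1 the first was -0.20.

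The 11 non-ATPase regulatory genes summed to 1043 and 964 units on native, 1018 and 1071 with MMP1, and 1094 and 1112 with MMP13. The MMP13 sums lay above both native ones (1.10-fold in the mean), while those with MMP1 overlapped. With MMP1, 6 of 11 log2 folds were above 0 (54.5%, median 0.19), and with MMP13 8 of 11 (72.7%, median 0.17). Over all tested genes, 51.1% and 50.5% were above 0.

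Psmd2, a scaffold subunit of the base, was at 294.2 and 280.7 units on native, 261.4 and 276.1 with MMP1, and 268.4 and 283.8 with MMP13. Its values over 6 libraries had a coefficient of variation of 4.17%, and its log2 folds were -0.10 (95% interval -0.42 to 0.23) and -0.06 (-0.39 to 0.27). Psmd1, the other scaffold subunit, was at 83.9 and 67.9 units on native, 59.9 and 78.02 with MMP1, and 84.6 and 110.8 with MMP13. Its log2 fold of MMP13 against MMP1 was 0.50 (adjusted p = 0.99 by limma). Psmd4, a ubiquitin receptor, was at 26.7 and 17.4 units on native, 27.7 and 36.01 with MMP1, and 31.6 and 23.5 with MMP13.

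Several non-ATPase regulatory genes, lid and base subunits counted together, separated the matrices without passing. Of the 11 non-ATPase regulatory genes, 5 had both MMP1 libraries above native (45.5%) and 3 both below (27.3%). With MMP13, 3 were above (27.3%) and 0 below. Over all tested genes these shares were 19.6% above and 18.8% below with MMP1, and 18.9% and 18.6% with MMP13. Psmd13 was at 52.3 and 46.8 units on native, 75.9 and 66.02 with MMP1, and 79.4 and 60.5 with MMP13. Its log2 folds were 0.51 and 0.48 (SE 0.30, adjusted p = 0.69 and 0.73 by limma), with no overlap. Psmd6 was at 17.02 and 18.9 units on native, 39.4 and 30.01 with MMP1, and 21.3 and 18.5 with MMP13. It was high in both MMP1 libraries alone, with a log2 fold of 0.90 (SE 0.45) against native and of -0.76 for MMP13 against MMP1 (adjusted p = 0.60 and 0.99 by limma). With MMP13 its fold against native was 0.14. Psmd11 had the reverse pattern, at 38.9 and 30.9 units on native, 32.1 and 33.6 with MMP1, and 70.6 and 43.7 with MMP13. Its log2 fold was 0.66 for MMP13 against native and 0.74 against MMP1 (SE 0.36, adjusted p = 0.65 and 0.91 by limma). Without MMP13 replicate 1 these were 0.32 and 0.40.

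Psmd7 was at 41.3 and 75.5 units on native, 84.7 and 76.8 with MMP1, and 84.6 and 73.9 with MMP13. Its log2 folds of 0.52 and 0.49 rested on native replicate 1, and were 0.0950 and 0.0662 without it. Psmd14, the lid's deubiquitinating enzyme, scattered most against the trend, at 97.2 and 41.5 units on native, 65.7 and 88.8 with MMP1, and 52.9 and 63.8 with MMP13. Psmd3 was at 105.8 and 134.3 units on native and between 125 and 138 on treated matrix. Psmd8 was at 217.6 and 198.5 units on native, 195.7 and 196.9 with MMP1, and 213.3 and 256.9 with MMP13. Psmd12 was at 68.1 and 51.3 units on native, 40.9 and 50.4 with MMP1, and 61.8 and 38.6 with MMP13, so that its MMP1 libraries lay below native.

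The summed core level divided by the summed regulatory level was 0.808 and 0.834 on native, 0.841 and 0.895 with MMP1, and 0.827 and 0.740 with MMP13. The MMP1 libraries lay above native and the MMP13 libraries did not separate from native. This ratio of read levels is not a ratio of particles.

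**Figure D3:**
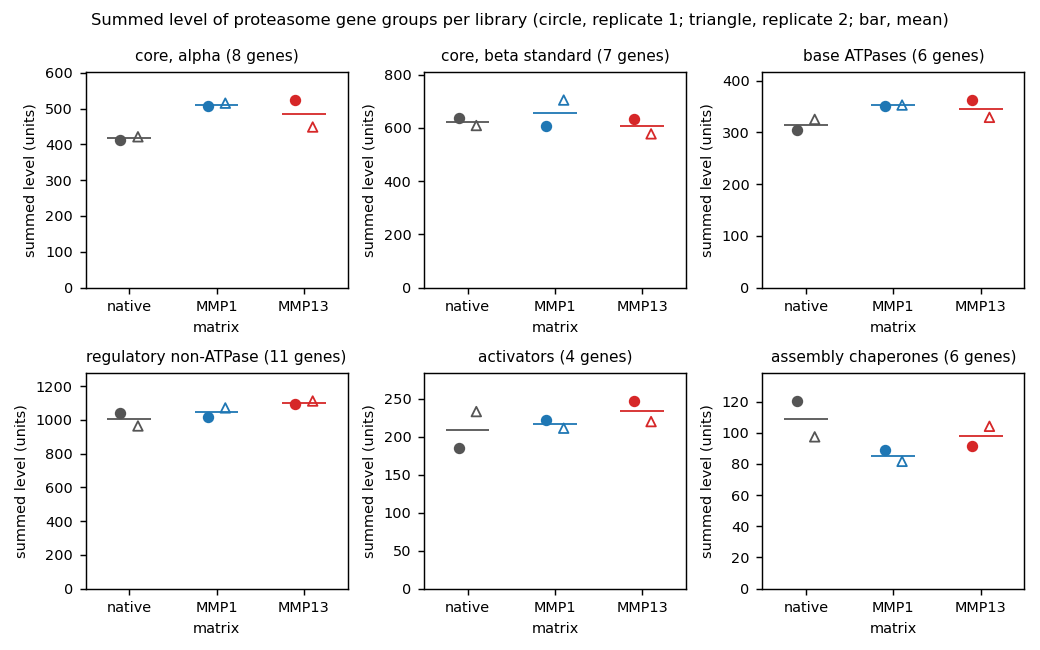
Summed level, in units, of 6 groups of proteasome genes in each library, by matrix; circles are replicate 1, triangles replicate 2 and bars the group mean, on axes that start at 0. The alpha ring sums of native matrix (412 and 421) lie below the 4 treated ones, and the sums of assembly chaperones with MMP1 (89.1 and 81.6) lie below native (120.3 and 97.3).

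The activators open the core without the ATPase cap. Psme1 and Psme2 form the interferon-inducible activator of the cytosol. Psme1 was at 19.4 and 27.2 units on native, 35.05 and 33.6 with MMP1, and 39.7 and 18.5 with MMP13. Psme2 was at 47.4 and 77.7 units on native, 55.5 and 91.2 with MMP1, and 88.2 and 72.2 with MMP13. Only the MMP1 libraries of Psme1 were apart from native. The nuclear activator gene Psme3 was at 106.97 and 113.9 units on native, 127.1 and 69.6 with MMP1, and 106.6 and 115.9 with MMP13. Psme4, a large nuclear activator, was between 4.38 and 16.8 units, and the inhibitor gene Psmf1 between 8.403 and 23.4 units, with overlapping groups.

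The summed level of the assembly chaperones was lower with MMP1 than in the other 4 libraries, while their members differed in direction. The gap to MMP13 was narrow, at 89.1 units in MMP1 replicate 1 and 91.2 in MMP13 replicate 1. In MMP1 replicate 1, 1 read is 1.46 units. Psmg1 and Psmg2 encode partners that guide assembly of the alpha ring. Psmg2 was at 32.8 and 12.1 units on native, 5.84 and 6.002 with MMP1, and 13.2 and 26.9 with MMP13. Both MMP1 libraries lay below the other 4, with 4 and 5 reads. By limma its log2 fold was -1.60 (SE 0.58, unadjusted p = 0.0057, adjusted p = 0.29) against native and 1.53 for MMP13 against MMP1 (unadjusted p = 0.0085, adjusted p = 0.80). Its native libraries differed widely, and without native replicate 1 the first fold was -0.92, without native replicate 2 it was -2.29. With MMP13 its fold against native was -0.08.

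Psmg1 was at 18.2 and 23.4 units on native, 11.7 and 4.801 with MMP1, and 23.5 and 6.72 with MMP13. Its MMP1 libraries lay below native (log2 fold -1.34, SE 0.59, adjusted p = 0.48 by limma), and the MMP13 libraries lay on either side of native (-0.65). Psmg4, of another chaperone pair, was at 14.6 and 6.79 units on native, 14.6 and 15.6 with MMP1, and 6.62 and 13.4 with MMP13. The base chaperone genes Psmd5 (34.6 to 49.2 units) and Psmd9 (6.002 to 18.2) overlapped between groups, and Psmd10 had 1 read in all. The summed chaperone level was 120.3 and 97.3 units on native, 89.1 and 81.6 with MMP1, and 91.2 and 104.1 with MMP13. Pomp, which matures the core, was at 35.3 and 25.7 units on native, 14.6 and 26.4 with MMP1, and 27.2 and 25.2 with MMP13.

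**Figure D4:**
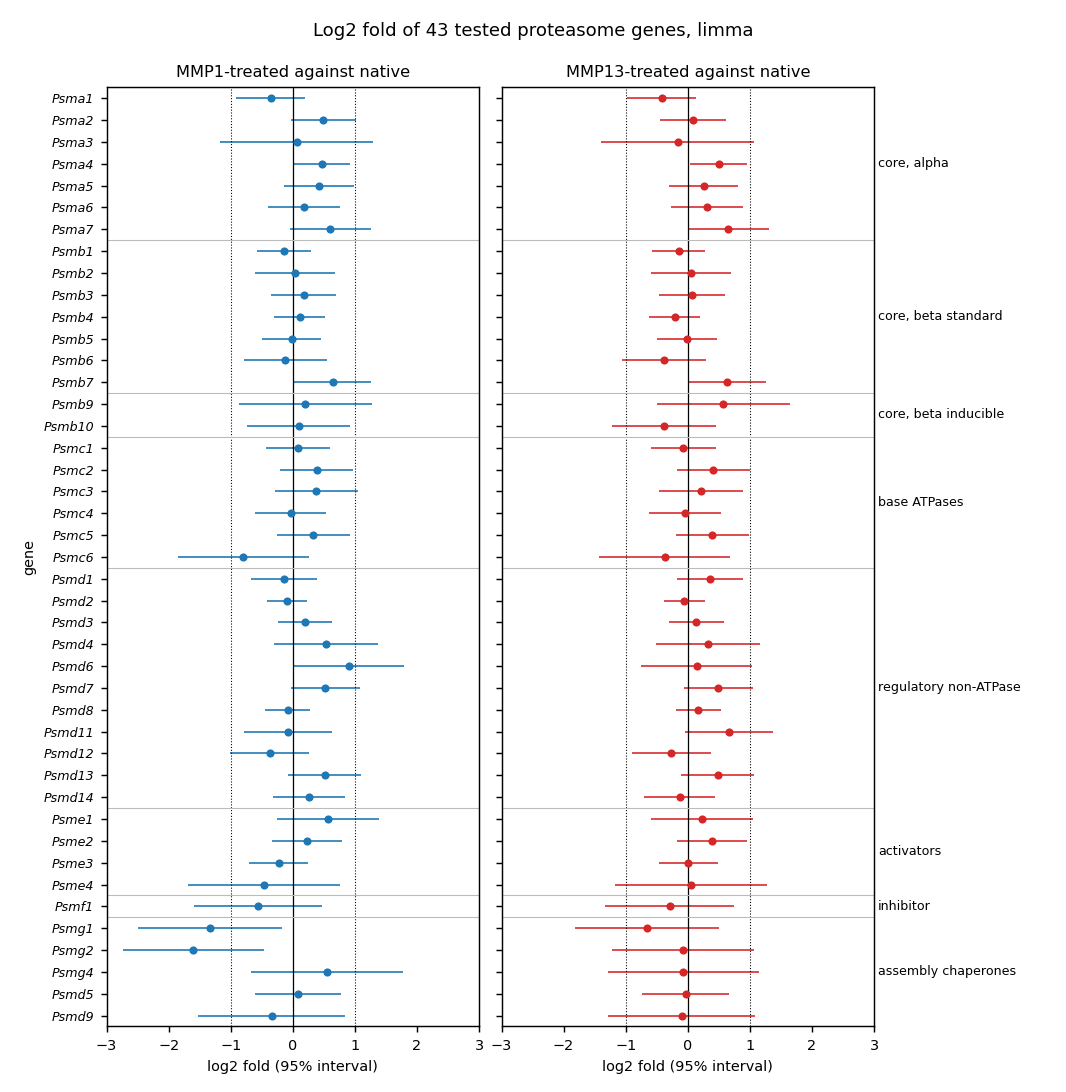
Log2 fold against native (points) with the 95% interval of the limma fit (lines) for the 43 tested parts, with MMP1 on the left and MMP13 on the right; dotted lines mark a 2-fold change. Most intervals include 0, and the lowest folds are those of Psmg2 (-1.60) and Psmg1 (-1.34) with MMP1.

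Set against all tested genes, calls were rare everywhere. By limma, 0 of the 43 parts passed with MMP1, with MMP13 and between the treated matrices, where 0.151%, 0.412% and 0.0412% of all 7284 genes passed. EdgeR and DESeq2 also called 0 in each comparison, with 5, 3 and 2 parts by edgeR and 1, 0 and 1 by DESeq2 at an unadjusted p under 0.05. At an unadjusted p under 0.05 there were 5 parts with MMP1 (11.6%, all genes 8.24%), 2 with MMP13 (4.65%, all genes 8.05%) and 2 between the treated matrices (4.65%, all genes 5.22%).

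With MMP1, 16 parts (37.2%) had both libraries above both native ones, against 19.6% of all tested genes, and 7 (16.3%) had both below, against 18.8%. With MMP13, 10 (23.3%) were above, against 18.9%, and 3 (6.98%) below, against 18.6%. Between the treated matrices, 4 were higher with MMP13 (9.30%, all genes 15.9%) and 5 lower (11.6%, all genes 15.4%). Both comparisons with native share the same 2 native libraries. The median log2 fold of the parts was 0.0931 with MMP1, 0.0464 with MMP13 and -0.0015 between the treated matrices. Over all tested genes it was 0.0161, 0.0088 and -0.0027.

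The 95% interval of the log2 fold lay wholly within a 2-fold change in either direction for 24 of 43 parts with MMP1, 23 with MMP13 and 28 between the treated matrices. For the others a 2-fold change was within the interval. These intervals take their error from the trend over genes of like level, and 19 of 43 parts scattered more between their own replicates than that trend, up to 1.83-fold for Psmd14. The spread over the 6 libraries relative to pure counting (variance over mean of reads, allowing for depth) had a median of 2.06 in the parts and 2.09 in all tested genes.

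Of 52 listed symbols for partners of the proteasome, 44 were among the deposited genes and 40 were tested. With MMP13 1 partner passed and rose, where 0.412% of all tested genes passed. This was Sqstm1, an autophagy receptor that binds ubiquitin, at 204.2 and 227.1 units on native, 328.6 and 294.1 with MMP1, and 375.8 and 312.3 with MMP13. The log2 fold was 0.67 with MMP13 (SE 0.17, adjusted p = 0.0249 by limma) and 0.53 with MMP1 (adjusted p = 0.18). The call was lost without native replicate 1 (adjusted p = 0.67), MMP1 replicate 1 (0.0744) or 2 (0.0648), and MMP13 replicate 1 (0.38) or 2 (0.13). The range of adjusted p across alternatives was 0.0112 to 0.84.

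No other partner passed with either enzyme or between the treated matrices. Txnl1, a thioredoxin-like protein of the regulatory particle, was at 23.1 and 29.4 units on native, 45.3 and 49.2 with MMP1, and 66.2 and 52.1 with MMP13. Its treated libraries were all above native, with log2 folds of 0.83 and 1.14 (SE 0.35, adjusted p = 0.45 and 0.14 by limma). Rad23b, which shuttles ubiquitinated proteins to the proteasome, was at 151.9 and 107.2 units on native, 73.02 and 124.8 with MMP1, and 79.4 and 70.5 with MMP13. Its log2 fold was -0.76 with MMP13 (adjusted p = 0.21 by limma) and -0.35 between the treated matrices. Between these, the shuttle gene Ubqln4 had the smallest unadjusted p (log2 fold 0.87, adjusted p = 0.95 by limma). Nfe2l2, which encodes the antioxidant regulator NRF2, was at 68.1 and 45.3 units on native, 51.1 and 49.2 with MMP1, and 41.9 and 58.8 with MMP13, with overlapping groups.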

How the data were processed

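Per the labels, cells were lysed on the matrix and 3' end libraries carrying a molecular identifier (UMI) of 8 nucleotides were made. The submitters' processing notes name TopHat, bcl2fastq, DESeq and the rat build rn5. For the gene counter, annotation, strand use and UMI collapsing the sources used here give nothing. Each deposited value is a normalised signal, a gene's reads over a scaling factor of its library; the values themselves show it, since 100% of those above 0 were whole multiples of the smallest within 0.01 reads.

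Genes with at least 5 units in at least 2 libraries (7284) entered limma (version 3.58.1, R 4.3.3) as log2(value + 1), using trended eBayes, all 6 libraries, no block and Benjamini-Hochberg adjustment over all tested genes. A call is an adjusted p under 0.05. Folds on this scale understate changes of low genes. The design allowed for counts or normalised values, and the second branch applied. The prior degrees of freedom were infinite, so errors come from the trend. Recovered reads were tested with edgeR 4.0.16 (4574 genes) and DESeq2 1.42.0.

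Members follow the naming pattern. Library values are given for members that do not overlap with native, are among the 3 smallest p of a comparison, or are catalytic, activating or the most abundant of their class, and for partners that passed or had the 2 smallest p per comparison, plus Nfe2l2 and Pomp (Nfe2l1 is not analysed here, and 1 partner named by this rule is not reported here); Irf1, Tap1 and further members were added after their values were seen. The members and lists were chosen with earlier results of these data known. On simulated counts for MMP1 against native, limma recovered 16 of 200 genes changed 2-fold and 171 of 200 changed 4-fold, with 7050 and 7072 genes tested. It also called 2 and 7 unchanged genes. The changed genes were drawn at or above the median level of tested genes, and all genes had the same spread beyond counting. Recovery of low members or of those scattering above the trend was thus not simulated.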

Additional observations from a re-analysis of the deposited data

How the results depend on the processing

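The count of proteasome genes called was 0 in every comparison and direction under all 18 alternatives: pseudocounts of 0.5 and 5, no filter, a stricter filter, quantile and TMM scaling, no trend, only the 2 groups compared, the replicate block, edgeR, DESeq2, 6 fits without 1 library, and identical rows counted once (added after seeing the data). The lowest adjusted p of any member was 0.19, without native replicate 2. Calls over all genes ran from 0 (no trend) to 17 for MMP1 against 11 reported, 0 to 35 for MMP13 against 30, and 0 to 27 between the treated matrices against 3. DESeq2 adjusted over 737 genes for MMP13, with 16 members among them. With a library left out, the members' median log2 fold ran from 0.0464 to 0.143 for MMP1, from 0.0273 to 0.131 for MMP13 and from -0.125 to 0.104 between the treated matrices. The sign under the alternatives was followed for 50 folds of named genes only, so folds of other members may also turn. Among these 50, signs turned only in folds that did not pass, with the cause not tested. For Psmg2 the sign turned with MMP13 (0.61 without native replicate 1, 0.41 without MMP13 replicate 1, range from -0.76). It turned for Psmg1 with MMP13 (0.18 without MMP13 replicate 2, range from -1.49). Between the treated matrices it turned for Rad23b (0.0352 without MMP1 replicate 2, range from -0.73). For Psmb5 it turned with MMP13 by edgeR (0.0077) and without MMP13 replicate 2 (0.0461, range from -0.0688). With MMP1 the sign of Psmb5 turned without MMP1 replicate 1 (0.0864, range from -0.13). Sqstm1 lost its call with no filter (adjusted p = 0.0703 by limma), with only the 2 groups compared (0.0553) and without the trend (0.84). Where 1 library was left out, the lone library of its group was assumed to vary like the others.

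Same-numbered libraries did not deviate together (r of deviations across 7284 genes 0.0059, -0.072 and -0.045). Counting error also draws such an r towards 0, so it cannot decide whether these libraries shared a culture or day. With the replicate block, 0 proteasome genes were called and the calls over all genes were 11, 21 and 2. In this balanced design the block leaves every log2 fold as it is (medians 0.0890, 0.0449 and -0.0036 over the 45 tested rows) and changes only the errors. Depth limits the low members: for example, Psmg1, Psmg2, Psmc6 and Psme4 had fewer than 10 reads in at least 1 library, and a 2-fold change could be missed.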
